A study of Homo sapiens with 6 samples.

Results

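The 10 genes described here belong to the detoxification programmes of NRF2 and of the aryl hydrocarbon receptor (AHR), and they were taken by name from the 34486 genes to which the deposited transcripts could be summed. The NRF2 targets are GCLC, GCLM, NQO1, TXNRD1, HMOX1 and AKR1C1, and the AHR arm consists of AHR itself with its targets CYP1A1, CYP1B1 and TIPARP. They were measured by total RNA sequencing in MCF10A cells, an immortalised, non-tumorigenic line of human breast epithelium with an unmodified (WT) genotype. In 3 libraries (siPDCD4) the cells had been reverse-transfected with siRNA against PDCD4, an RNA-binding tumour suppressor protein, and in 3 libraries (siCT) with control siRNA, in both groups at 10 nM and for 48 h. All cells of both groups grew in the same medium with horse serum, epidermal growth factor, insulin, hydrocortisone and cholera toxin, and no oxidant or AHR ligand was named among its supplements. According to the paper's methods, MCF10A cells were given fresh medium some hours before they were harvested.

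NRF2 (gene NFE2L2) is a transcription factor that KEAP1 holds in the cytoplasm and hands to a ubiquitin ligase for degradation. When electrophiles or oxidants modify KEAP1, NRF2 accumulates, pairs with small MAF proteins and binds antioxidant response elements (AREs) near genes for glutathione synthesis, thioredoxin recycling and quinone reduction. AHR is a ligand-activated transcription factor that rests in a chaperone complex, enters the nucleus with a bound aromatic compound, pairs with ARNT and binds xenobiotic response elements (XREs) near genes for phase I enzymes. The programmes overlap, since NQO1 is a known target of both factors.

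The letters of the ARE core, TGACNNNGC, and of the XRE, TNGCGTG, were searched for on both strands near these genes. The window was the 1000 bases before the annotated start of each gene's canonical transcript. The ARE core occurred once each in the windows of GCLC, GCLM, NQO1 and TXNRD1, and in 32.5% of all 20046 such windows. The XRE occurred 3 times each in the windows of CYP1A1 and CYP1B1, and in 19.2% of all windows. The other 4 genes had neither in this window, which for AHR lies within the annotated gene, since that begins further upstream. The matches of the NRF2 targets and of CYP1A1 are printed below from GRCh38, 5′ to 3′ on the strand that carries the motif, with 10 bases on each side and with the motif in capitals.
GCLM: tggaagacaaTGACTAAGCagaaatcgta
TXNRD1: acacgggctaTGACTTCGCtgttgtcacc
NQO1: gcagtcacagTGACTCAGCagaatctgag
GCLC: aaatatgtgtTGACAGAGCaatgacctgt
CYP1A1, XRE nearest the start: gagtcccggcTCGCGTGagaagcgctg
CYP1A1, middle XRE: cccggctagcTTGCGTGcgccggcgac
CYP1A1, XRE farthest from the start: tgcccaggcgTTGCGTGagaaggaccg

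The GCLM match lies at chr1:93909446-93909474 on the plus strand, 34 bases before the start of its canonical transcript GCLM-201, counted here as for the others to the far end of the motif, whereas GCLM-204 is annotated to start within the motif, at position 93909456. The TXNRD1 match lies at chr12:104215670-104215698 on the plus strand, 99 bases before the start of the gene's canonical transcript, and the transcripts of TXNRD1 that held most reads start further downstream. The NQO1 match lies at chr16:69726997-69727025 on the minus strand, which is also the strand of the gene, 455 bases before the start. The GCLC match lies at chr6:53545953-53545981 on the plus strand, 870 bases before the start of its canonical transcript GCLC-214. It lies within the annotated gene, which begins further upstream, as does the transcript GCLC-212, at position 53548206. The CYP1A1 matches, on the plus strand while the gene lies on the minus strand, are at chr15:74726015-74726041, chr15:74726410-74726436 and chr15:74726498-74726524, or 503, 898 and 986 bases before the start. Those of CYP1B1 are 837, 856 and 992 bases before the start of its canonical transcript CYP1B1-205, within the annotated gene, which begins further upstream. A match is a description of the letters and was not tested for binding.

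The libraries held between 13410441 and 21828931 estimated counts. PDCD4 stood at 9.15, 7.43 and 8.62 CPM in siPDCD4 and at 90.4, 89.0 and 61.1 CPM in siCT, so the silenced gene was low in all 3 libraries labelled siPDCD4 (log2 fold change -3.25 ± 0.17, SE; adjusted p = 2.2e-05 in edgeR). CPM are counts scaled to a common library size with TMM factors and corrected for average transcript length. All 7 markers of epithelial or basal mammary cells were present, at 50.8 CPM or more in every library. The 10 markers of other cell types did not exceed 10.3 CPM, and ALB, APOA1 and PGR were at 0 throughout. The library siCT replicate 3 had the lowest total, the lowest share of counts in protein-coding genes (76.2%) and the largest share in a single transcript (16.0%). Nearest to it was siPDCD4 replicate 2 (78.7% and 14.4%). At the other end siCT replicate 1 had the highest total, 86.4% in protein-coding genes and 5.72% in a single transcript. In several of the genes below the libraries numbered 3 of both groups stood apart from the others, and their values are therefore given one by one. Whether the replicates of a group were separate cultures is not stated in the labels, and the p-values can therefore speak only of the spread among these 6 libraries, which may be technical. In such bulk libraries fewer cells that express a gene and less RNA per cell cannot be told apart.

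The question put to these genes was whether silencing PDCD4 moved the mRNAs of the detoxification programmes. In none of the 10 genes did the difference pass a false discovery rate (FDR) of 5% in edgeR's quasi-likelihood test, where 0.429% of all 13047 genes tested passed. DESeq2 and limma-voom called 0 of the 10 as well, against 1.31% of all genes in DESeq2 and 0.359% in limma-voom. Without adjustment, 1 of the 10 had a p under 0.05 in edgeR (TIPARP), as did 8.61% of all genes. The log2 fold change of siPDCD4 over siCT lay above 0 in 8 genes and below 0 in 2 (HMOX1 and AKR1C1), with a median of 0.076 beside -0.0055 over all genes tested. Without siPDCD4 replicate 3 it lay above 0 in 4 genes and below 0 in 6. The median was 0.047 in the 6 NRF2 targets, and between -0.091 (without siPDCD4 replicate 3) and 0.11 (without siPDCD4 replicate 1) with 1 library left out. In the 4 genes of the AHR arm it was 0.16, and between 0.075 (without siCT replicate 2) and 0.27 (without siPDCD4 replicate 2). In 2 of the 10 genes (AHR and TIPARP) every siPDCD4 library lay above every siCT library, a pattern found in 6.81% of all genes. In none did every siPDCD4 library lie below every siCT library, as 7.14% of all genes did, and the groups were apart in either direction in 13.9% of all genes.

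**Figure D1:**
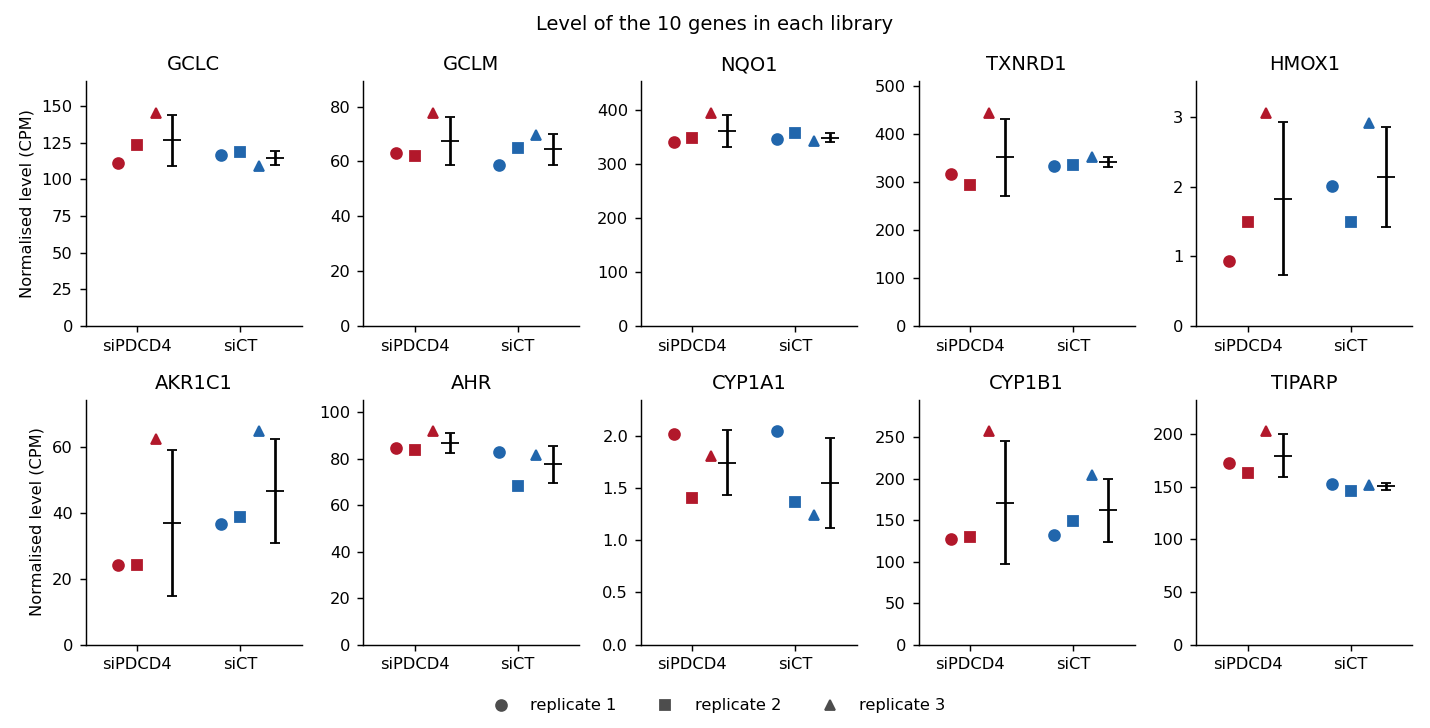
Normalised level in CPM (y axis, from 0, own scale per gene) of the 10 genes in each siPDCD4 library (red, left) and each siCT library (blue, right), with the replicate number as symbol and black bars for mean and SD (n = 3). The groups overlapped in 8 genes, and AHR and TIPARP were the exceptions, with all 3 siPDCD4 libraries on top.

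Corrected for length, the genes covered a wide range, and their order is a description. In siCT, NQO1 had the highest level at 316 ± 7.25 CPM per kb (SD, n = 3), followed by TXNRD1 at 135 ± 4.11 CPM per kb. GCLC (58.9 ± 2.48), TIPARP (50.9 ± 1.20), AKR1C1 (42.6 ± 14.3), CYP1B1 (39.7 ± 9.27), GCLM (28.2 ± 2.44) and AHR (23.0 ± 2.38) came next, all in CPM per kb. HMOX1 at 1.80 ± 0.609 and CYP1A1 at 0.671 ± 0.188 CPM per kb were the lowest of the 10. The lowest library of NQO1 lay above the highest of TXNRD1, and likewise for TXNRD1 over GCLC and AHR over HMOX1. The ranges over the 6 libraries overlapped for every other pair of neighbours in this order, although CYP1B1 lay above GCLM and GCLM above AHR within each library. The mRNAs of the inducible enzymes HMOX1 and CYP1A1 were thus measured from 188 and 165 counts over all 6 libraries, compared with 35133 for NQO1.

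Glutathione synthesis is represented by GCLC and GCLM, the catalytic and modifier subunits of glutamate-cysteine ligase, which carries out the rate-limiting step. GCLC (ENSG00000001084.13, chromosome 6, 53497341 to 53616970) had 111, 124 and 145 CPM in siPDCD4 replicates 1, 2 and 3 and 116, 119 and 109.3 CPM in siCT replicates 1, 2 and 3. The groups overlapped, with siPDCD4 replicate 3 on top. On the log2 scale the difference of siPDCD4 over siCT was 0.14 ± 0.10 (SE, n = 3 per group; adjusted p = 0.843 in edgeR), with a 95% interval from -0.088 to 0.37, and it was 0.042 without siPDCD4 replicate 3. GCLM (ENSG00000023909.10, chromosome 1, 93885199 to 93909456) had 63.1, 61.8 and 77.7 CPM in siPDCD4 and 58.6, 65.0 and 69.7 CPM in siCT. Here, too, the groups overlapped and replicate 3 was the highest library of each group. GCLM differed by 0.070 ± 0.11 on the log2 scale (adjusted p = 0.965 in edgeR), with an interval from -0.18 to 0.32, and this value was -0.032 without siPDCD4 replicate 3. For both subunits the interval thus reached up to a ratio of about 1.3 (1.29 for GCLC and 1.25 for GCLM) and down to 0.941 for GCLC and 0.882 for GCLM.

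NQO1 (ENSG00000181019.13, chromosome 16, 69706996 to 69726668) encodes a quinone reductase and is widely used as a readout of NRF2. It had 342, 348 and 395 CPM in siPDCD4 and 347, 358 and 342 CPM in siCT. The groups overlapped and 5 of the 6 libraries lay within 342 to 358 CPM. Its log2 fold change was 0.050 ± 0.084 (adjusted p = 0.965 in edgeR), and the 95% interval, from -0.13 to 0.24, was the narrowest of the 10 genes. This interval corresponds to ratios between 0.911 and 1.18. Without siPDCD4 replicate 3 the log2 fold change was -0.0072.

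TXNRD1 (ENSG00000198431.18, chromosome 12, 104215779 to 104350307) encodes the cytosolic thioredoxin reductase, which keeps thioredoxin reduced with electrons from NADPH. It had 317, 293 and 443 CPM in siPDCD4 and 333, 336 and 352 CPM in siCT. A single library, siPDCD4 replicate 3, stood above the other 5, and the other siPDCD4 libraries were the lowest of the 6. TXNRD1 differed by 0.044 ± 0.14 on the log2 scale (adjusted p = 0.985 in edgeR), with an interval from -0.26 to 0.35, and this value was -0.15 without siPDCD4 replicate 3.

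HMOX1 (ENSG00000100292.18, chromosome 22, 35380361 to 35394214) encodes haem oxygenase, which breaks haem down into biliverdin, iron and carbon monoxide. The gene had 19, 19 and 46 counts in siPDCD4 and 37, 30 and 37 counts in siCT. In CPM these were 0.930, 1.496 and 3.05 in siPDCD4 and 2.00, 1.49 and 2.92 in siCT, so that replicate 3 was again the highest library in each group and the groups overlapped. For HMOX1 the log2 fold change of -0.22 ± 0.44 (adjusted p = 0.974 in edgeR) had an interval from -1.21 to 0.76. The sign depended on single libraries, at 0.12 without siPDCD4 replicate 1 and 0.051 without siCT replicate 3.

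AKR1C1 (ENSG00000187134.14, chromosome 10, 4963253 to 4983283) encodes an aldo-keto reductase that reduces steroids and lipid aldehydes, and its libraries were spread widely in both groups. It had 24.1, 24.1 and 62.5 CPM in siPDCD4 and 36.4, 38.7 and 64.6 CPM in siCT. The libraries siPDCD4 replicates 1 and 2 were the lowest of the 6, the libraries numbered 3 were the highest of both groups, and the groups overlapped. For AKR1C1 the log2 fold change came to -0.33 ± 0.49 (adjusted p = 0.965 in edgeR), with an interval from -1.56 to 0.91. Leaving out siPDCD4 replicate 3 gave -0.93, with an adjusted p of 0.293. Leaving out siCT replicate 3 gave -0.020, with an adjusted p of 0.994. With both libraries numbered 3 left out, an alternative chosen after seeing the data, the value was -0.63 with an adjusted p of 0.0811.

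AKR1C1 shares sequence with its neighbours AKR1C2 and AKR1C3, which act on steroids and prostaglandins, and reads of such paralogs are split by estimate. Of all 75-base windows of the transcripts AKR1C1-205 and AKR1C1-203, 37.5% and 24.2% also occur in a transcript of another gene. AKR1C2 had 63.7, 63.0 and 193 CPM in siPDCD4 and 76.5, 67.2 and 128 CPM in siCT. AKR1C3 had 40.6, 41.0 and 91.0 CPM in siPDCD4 and 45.7, 44.4 and 59.7 CPM in siCT. Both paralogs thus showed the same high libraries as AKR1C1. The log2 fold change of AKR1C2 was 0.24 ± 0.59 (edgeR adjusted p = 0.976) and that of AKR1C3 was 0.21 ± 0.35 (0.965), and without siPDCD4 replicate 3 they were -0.50 and -0.28. Summed as a family, the 3 genes had 129, 129 and 347 CPM in siPDCD4 and 158, 150 and 251 CPM in siCT, and the log2 fold change was 0.12 in place of -0.33 for AKR1C1 alone. AKR1C1 made up 19.0%, 18.03% and 18.8% of the family's counts in siPDCD4 and 23.4%, 24.4% and 26.2% in siCT. These shares did not overlap between groups, were noticed after the values had been seen, and were not tested. How often shares within other gene families lie apart was not computed. Gene levels lay apart between groups in 13.9% of all genes.

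**Figure D2:**
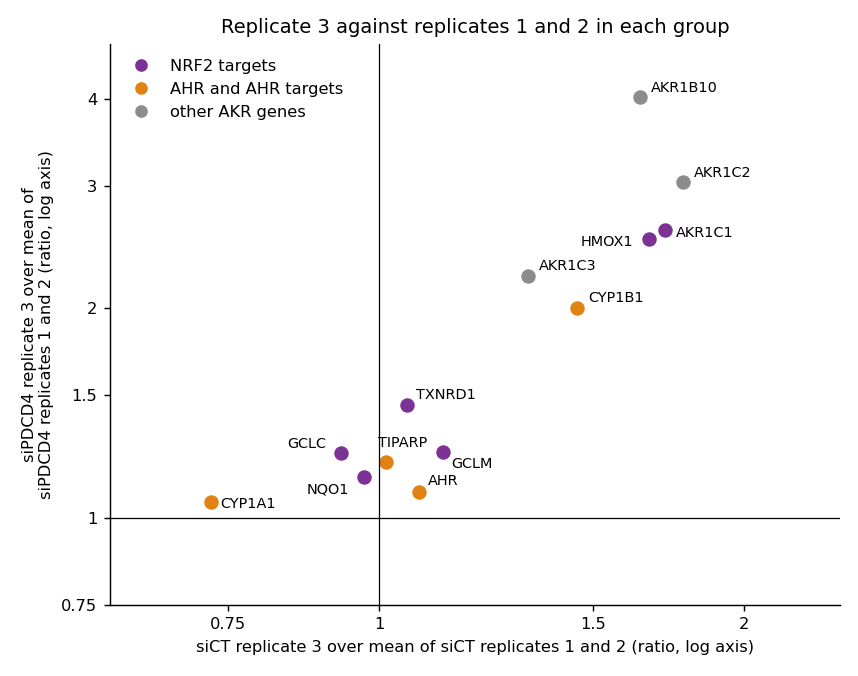
Level in siPDCD4 replicate 3 over the mean of siPDCD4 replicates 1 and 2 (y axis, ratio, log axis) against the same ratio in siCT (x axis), 1 point per gene, for the 6 NRF2 targets (purple), the 4 genes of the AHR arm (orange) and 3 further AKR genes (grey). AKR1C1 and HMOX1 lie at ratios of 2.59 and 2.52 in siPDCD4 and 1.72 and 1.67 in siCT, and all 13 points lie above 1 on the y axis.

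The libraries numbered 3 stood apart in several of these genes. Replicate 3 was the highest library of both groups in 5 of the 10 genes (GCLM, TXNRD1, HMOX1, AKR1C1 and CYP1B1), as it was in 17.4% of all genes tested. AKR1C1 and HMOX1 were at least 1.5 times the mean of the other libraries in replicate 3 of both groups, a property of 295 genes or 2.26% of those tested. Among the other NRF2 targets AKR1C2 and AKR1B10 shared it. AKR1B10, an aldo-keto reductase of retinal and aliphatic aldehydes that is singled out here after its values were seen, had 3.28, 3.14 and 12.9 CPM in siPDCD4 and 2.75, 2.05 and 3.94 CPM in siCT. Of the 7 markers of epithelial or basal mammary cells, replicate 3 was the lowest library of both groups in 3 (KRT5, KRT14 and CDH1). It was the highest of both in 1 (EGFR). The labels name no batch for these libraries, and what sets them apart was not tested.

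**Figure D3:**
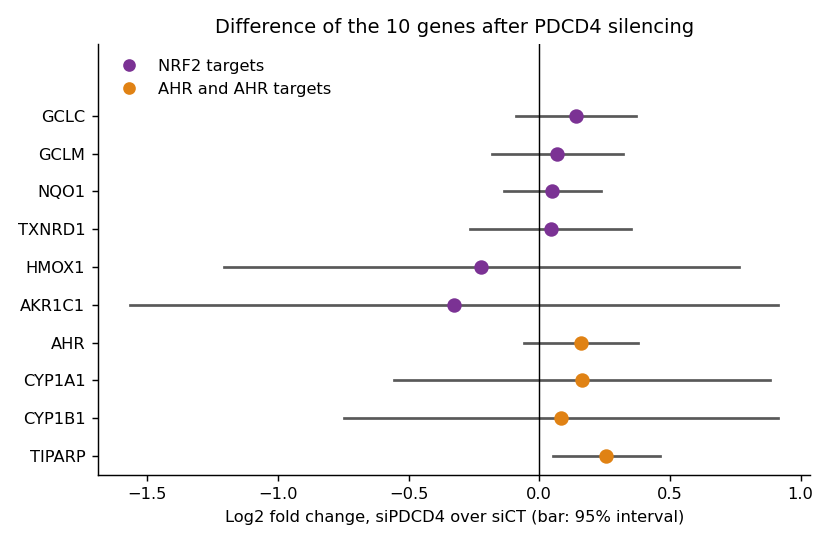
Log2 fold change of siPDCD4 over siCT (x axis, points) with its 95% interval (bars) from edgeR for the 6 NRF2 targets (purple) and the 4 genes of the AHR arm (orange). The intervals of 9 genes include 0, and that of TIPARP runs from 0.051 to 0.46 without passing the adjusted threshold.

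In the AHR arm, the receptor gene AHR (ENSG00000106546.14, chromosome 7, 16916359 to 17346152) had 84.7, 83.6 and 91.7 CPM in siPDCD4 and 83.0, 68.4 and 81.5 CPM in siCT. Every siPDCD4 library lay above every siCT library, although siPDCD4 replicate 2 and siCT replicate 1 were close to each other. AHR had a log2 fold change of 0.16 ± 0.10 with an interval from -0.057 to 0.38, which did not pass (adjusted p = 0.766 in edgeR), and the value was 0.076 without siCT replicate 2. A read-through gene on the same strand shares 37.3% of the 75-base windows of AHR-201. It took up 0, 0 and 8.39 counts in siPDCD4 and 0 counts in each siCT library, compared with 937 to 1689 for AHR.

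TIPARP (ENSG00000163659.13, chromosome 3, 156673235 to 156706770) encodes a mono-ADP-ribosyltransferase that is induced by AHR and in turn dampens it. It had 173, 163 and 202 CPM in siPDCD4 and 153, 146 and 151 CPM in siCT. The groups did not overlap, and the siCT libraries lay close together (179 ± 20.4 CPM in siPDCD4 and 150 ± 3.55 CPM in siCT, SD, n = 3 each). On the log2 scale this was 0.26 ± 0.093, a ratio of 1.20 with an interval from 1.04 to 1.38. After adjustment over all genes edgeR gave a p of 0.420, and this adjusted p lay between 0.241 and 0.804 over all alternatives. The log2 fold change was 0.17 without siPDCD4 replicate 3. TIPARP thus had the smallest p of the 10 genes without passing the threshold.

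CYP1A1 and CYP1B1 encode cytochrome P450 enzymes that oxidise polycyclic aromatic hydrocarbons and oestrogens. CYP1A1 (ENSG00000140465.15, chromosome 15, 74719542 to 74725536), the classical target of AHR, had 37, 21 and 27 counts in siPDCD4 and 39, 25 and 16 counts in siCT. At 2.02, 1.41 and 1.81 CPM in siPDCD4 and 2.04, 1.37 and 1.24 CPM in siCT the groups overlapped at a low level. The difference of CYP1A1 was 0.16 ± 0.33 on the log2 scale (adjusted p = 0.973 in edgeR), with an interval from -0.56 to 0.88 that reaches up to a ratio of 1.84.

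CYP1B1 (ENSG00000138061.12, chromosome 2, 38066973 to 38109902), the family member known for its constitutive expression in mammary tissue, had 127, 129 and 257 CPM in siPDCD4 and 133, 149 and 205 CPM in siCT. Replicate 3 was the highest library of each group, and the remaining libraries lay within 127 to 149 CPM. CYP1B1 differed by 0.082 ± 0.33 on the log2 scale (edgeR, adjusted p = 0.985), with an interval from -0.75 to 0.91. Its sign turned, to -0.32 without siPDCD4 replicate 3 and to -0.044 without siCT replicate 1.

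Each gene's reads are divided among several transcripts, and the shares were compared as well. No member passed an FDR of 5% in the edgeR test of transcript shares (diffSpliceDGE with Simes p-values), where 23 of 9168 genes, or 0.251%, passed. Of the 10 genes 9 could be tested, since CYP1B1-205 alone held 94.6 ± 0.525% of the counts of CYP1B1 in siPDCD4 and 93.8 ± 1.76% in siCT, and 0 of the 9 had an unadjusted p under 0.05. With every transcript that held at least 1% of its gene's counts, all 10 genes could be tested and 0 passed, against 0.575% of 10953 genes. No other tool was run on the shares.

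Among transcripts with at least 10% of their gene's counts, in genes with more than 1 such transcript, the shares did not overlap between groups in 6 of 25 transcripts of 9 members, and in 8.73% of the 19022 transcripts of all genes. TXNRD1, CYP1A1 and GCLC each had 2 of the 6, and the shares within a gene depend on each other. TXNRD1-210, which held 39.8% of the gene's counts over the 6 libraries, made up 39.8%, 50.02% and 43.4% in siPDCD4 and 31.4%, 38.0% and 38.8% in siCT. TXNRD1-201 made up 32.8%, 22.9% and 26.4% in siPDCD4 and 38.6%, 34.3% and 33.96% in siCT. For neither transcript did the groups overlap, and neither passed in edgeR (adjusted p = 1.00 for both). These transcripts differ little, as 91.9% of the 75-base windows of TXNRD1-210 also occur in TXNRD1-201.

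CYP1A1-201 held 69.3%, 100% and 94.0% of the counts of CYP1A1 in siPDCD4, compared with 46.5%, 0% and 0% in siCT. CYP1A1-202 held 24.6%, 0% and 0% in siPDCD4 and 47.2%, 100% and 100% in siCT. These groups did not overlap, yet CYP1A1-201 did not pass in edgeR (adjusted p = 1.00), on 16 to 39 counts per library. The transcripts share 97.1% of the windows of CYP1A1-201, so that few reads can tell them apart.

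**Figure D4:**
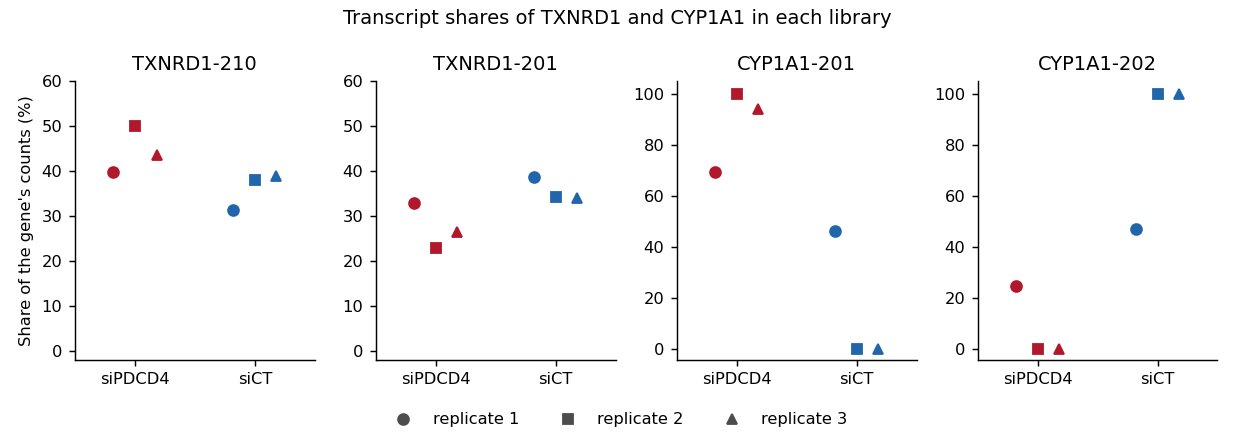
Share of the gene's estimated counts in percent (y axis, own scale per gene) held by 2 transcripts of TXNRD1 and 2 of CYP1A1 in each siPDCD4 library (red, left) and siCT library (blue, right), with the replicate number as symbol. The groups do not overlap in any of the 4 panels, and the CYP1A1 shares rest on 16 to 39 counts per library.

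GCLC showed differences of a few percentage points. GCLC-213 made up 20.2 ± 0.792% of the counts of GCLC in siPDCD4 and 25.8 ± 1.88% in siCT, and GCLC-207 made up 15.8 ± 1.16% in siPDCD4 and 12.7 ± 1.30% in siCT (SD, n = 3 each). For these transcripts, too, the groups did not overlap, and the adjusted p was 1.00 in edgeR. The shares of all transcripts of GCLM, NQO1, HMOX1, AKR1C1, AHR and TIPARP that held at least 10% of their gene's counts overlapped between groups.

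The genes that control NRF2 were compared to place its targets. Of 10 regulators 0 passed in edgeR and in DESeq2, and the median log2 fold change was -0.0037. In edgeR 1 of them had an unadjusted p under 0.05, as did 8.61% of all genes. NFE2L2, which encodes NRF2 itself, had 101, 106 and 108.8 CPM in siPDCD4 and 104.5, 98.5 and 81.1 CPM in siCT (log2 fold change 0.15 ± 0.10, adjusted p = 0.811 in edgeR). Leaving out siCT replicate 3 gave 0.054 for NFE2L2, and leaving out siCT replicate 1 gave 0.23. The log2 fold change was -0.042 ± 0.13 for KEAP1 (adjusted p = 0.985) and -0.019 ± 0.12 for BACH1, the repressor that competes for AREs (0.990). SQSTM1, whose product binds KEAP1, stood at 0.16 ± 0.13 on the log2 scale (0.875). NFE2L1, which encodes the related factor NRF1, had the smallest p, with 199, 190 and 218 CPM in siPDCD4 and 241, 234 and 244 CPM in siCT. Its groups did not overlap, and 7.14% of all genes likewise had every siPDCD4 library below every siCT library. The log2 fold change of NFE2L1, -0.25 ± 0.081 (adjusted p = 0.357 in edgeR), did not pass.

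Among 40 further NRF2 targets, 38 were tested and 0 passed in edgeR or in DESeq2, with 23 above and 15 below 0. Their median log2 fold change was 0.028, and 3 had an unadjusted p under 0.05 in edgeR, as did 8.61% of all genes. EPHX1, the microsomal epoxide hydrolase, had 53.5, 50.1 and 64.3 CPM in siPDCD4 and 42.9, 43.4 and 42.5 CPM in siCT, with a log2 fold change of 0.38 ± 0.11 (adjusted p = 0.256 in edgeR). FTL, the ferritin light chain, had 473, 454 and 721 CPM in siPDCD4 and 401, 365 and 445 CPM in siCT, with a log2 fold change of 0.45 ± 0.17 (adjusted p = 0.474) that came to 0.21 without siPDCD4 replicate 3. In both genes every siPDCD4 library lay above every siCT library, as in 6.81% of all genes. The microsomal glutathione transferase MGST1 lay the other way, with 174, 159 and 184 CPM in siPDCD4 and 230, 201 and 200 CPM in siCT and a log2 fold change of -0.29 ± 0.091 (adjusted p = 0.320). By role, the median log2 fold change was 0.0050 in 9 glutathione genes, -0.040 in 4 thioredoxin and peroxiredoxin genes and 0.056 in 5 genes of NADPH supply. It was 0.21 in 9 genes of carbonyl, epoxide and quinone metabolism, -0.086 in 5 genes of haem and iron handling, 0.11 in 3 export genes and 0.27 in 3 other genes. The 0.21 was the value of AKR1C3, which was -0.28 without siPDCD4 replicate 3. Replicate 3 was the highest library of both groups in 4 of these 9 genes, as in 17.4% of all genes.

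Over all genes tested 0.429% passed in edgeR and 1.31% in DESeq2. Of the partners and further targets of AHR, 11 of 12 were tested and 1 passed in edgeR, the aldehyde dehydrogenase gene ALDH3A1. It had 41.3, 43.7 and 62.8 CPM in siPDCD4 and 22.8, 28.1 and 25.4 CPM in siCT, and the log2 fold change was 0.95 ± 0.16 (adjusted p = 0.0378 in edgeR). With all 6 libraries ALDH3A1 passed under 8 of 10 alternatives, among them DESeq2 (adjusted p = 1.4e-05). The exceptions were limma-voom, at 0.94 on the log2 scale (adjusted p = 0.0807), and protein-coding transcripts only, at 1.01 (adjusted p = 0.0804). With any 1 of the 6 libraries left out it did not pass (adjusted p of 0.0524 to 0.155), and the log2 fold change lay between 0.75 and 1.07. The median log2 fold change of the list was 0.067. ARNT, the partner with which AHR binds DNA, stood at -0.19 ± 0.18 on the log2 scale (edgeR adjusted p = 0.904). The repressor AHRR stood at -0.087 ± 0.34 (0.985) and the chaperone HSP90AB1 at -0.13 ± 0.10 (0.855). UGT1A6, a glucuronosyltransferase, averaged 1.48 ± 0.507 CPM in siPDCD4 and 1.00 ± 0.242 CPM in siCT (SD, n = 3 each), with a log2 fold change of 0.61 ± 0.37 and an edgeR adjusted p of 0.767. For UGT1A6 the value was 0.12 with protein-coding transcripts only and 0.29 without siPDCD4 replicate 3. CYP1A2, the cytochrome neighbouring CYP1A1, averaged 0.685 ± 0.0138 CPM in siPDCD4 and 0.435 ± 0.0686 CPM in siCT, with a log2 fold change of 0.64 ± 0.40 and an edgeR adjusted p of 0.777. These levels rest on few counts, so the small SDs are no measure of precision. The gene was not tested under the alternative filter of at least 1 CPM in 3 libraries.

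**Figure D5:**
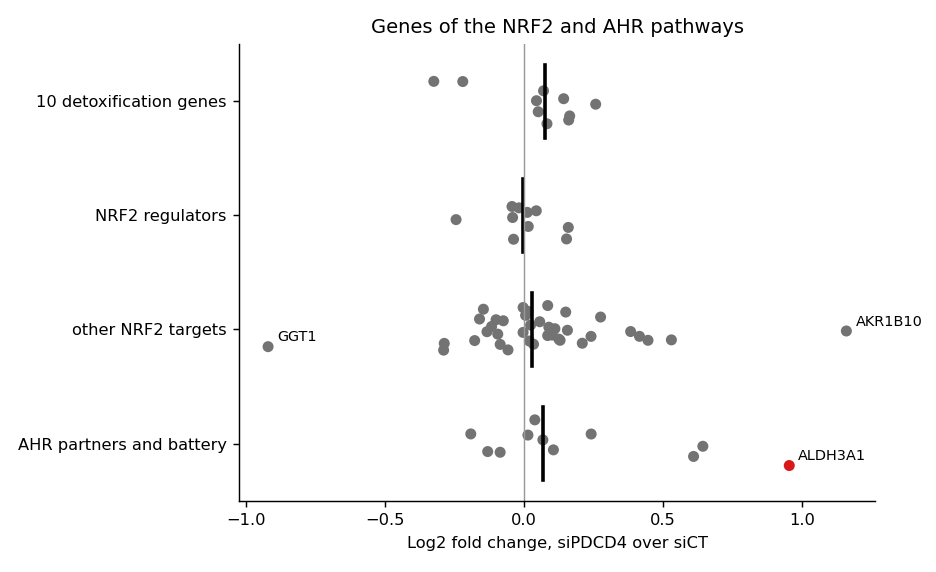
Log2 fold change of siPDCD4 over siCT (x axis) of the 10 detoxification genes and of the 3 lists of pathway genes (rows, 1 point per tested gene, spread vertically for legibility), with the median of each row as a black line. ALDH3A1, in red, is the 1 gene past an FDR of 5%, and AKR1B10 and GGT1, labelled for their distance from 0, did not pass.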

How the data were processed

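Total RNA from MCF10A cells was sequenced as paired 75-base reads in 3 siPDCD4 and 3 siCT libraries. The authors ran Salmon against a GRCh38 transcript set and deposited estimated counts and effective lengths per transcript. The sources used here name no version of Salmon. The deposited effective lengths are in bases, and they are used for the length offset. Of 194142 listed transcripts, 181244 were matched by identifier to GENCODE 44 and summed to genes, and the others, with 5.47% to 6.21% of the counts, were not analysed here.

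Rounded gene counts entered edgeR 4.0.16 under R 4.3.3 (robust quasi-likelihood F test, TMM factors, filterByExpr, offset for average transcript length, group as the factor). Benjamini-Hochberg adjustment covered all 13047 genes that were tested, with calls made at an FDR of 5%. Errors after ± are SEs for log2 fold changes and SDs for levels and shares. Shares were tested with diffSpliceDGE in transcripts with at least 5% of a gene's counts. DESeq2 1.42.0, limma-voom (limma 3.58.1), other scalings, filters and transcript sets, a replicate block and leaving out libraries were alternatives. The tests were checked on simulated data. The members, the lists and the tests were chosen with earlier results of these data known. Named genes are the members, PDCD4, in each list those past the FDR and up to 3 more with the smallest p, and NFE2L2, KEAP1, BACH1, ARNT, AHRR, AKR1C2 and AKR1C3. AKR1B10, GGT1 and the markers KRT5, KRT14, CDH1 and EGFR were named after their values were seen. GPX2 and CYP2S1 fell under the filter, and SESN2 was not analysed here. Promoters were read from GRCh38 with Python 3.11.15, and figures were drawn with matplotlib 3.10.9.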

Additional observations from a re-analysis of the deposited data

How the results depend on the processing

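None of the 10 genes passed an FDR of 5% under any of 18 settings, and of their 171 log2 fold changes under alternatives 159 kept their direction and 12 reversed. GCLC, AHR, CYP1A1 and TIPARP kept theirs in all, but not their size. Of the NRF2 regulators and other NRF2 targets 0 passed under any setting. The number of genes called was 56, compared with 108 without a filter, 181 with DESeq2, 128 without the length offset, 99 at an FDR of 10% and 17 to 42 with 1 library or both libraries numbered 3 left out. The AHR partners and targets had 0 calls with limma-voom, with protein-coding transcripts only, and with any 1 library or both libraries numbered 3 left out (0 to 0), in place of 1. Without the length offset KEAP1 was at 0.037, BACH1 at 0.10 and AHRR at 0.029. With protein-coding transcripts only GCLM was at -0.017, ARNT at 0.012 and AHRR at 0.16. AKR1C1 summed with AKR1C2 and AKR1C3 was at 0.12. Without both libraries numbered 3, chosen after seeing the data, NQO1 was at -0.021, TXNRD1 at -0.12, CYP1B1 at -0.12, ARNT at 0.0051, AKR1C2 at -0.17 and AKR1C3 at -0.13. With 1 library or both libraries numbered 3 left out the log2 fold changes ranged from 0.0084 to 0.23 for GCLC, 0.076 to 0.21 for AHR, 0.026 to 0.42 for CYP1A1, 0.17 to 0.32 for TIPARP, -0.93 to -0.020 for AKR1C1, -0.032 to 0.13 for GCLM, -0.021 to 0.090 for NQO1, -0.15 to 0.16 for TXNRD1, -0.81 to 0.12 for HMOX1, -0.32 to 0.28 for CYP1B1, -0.18 to 0.055 for KEAP1, -0.10 to 0.10 for BACH1, -0.36 to 0.040 for ARNT, -0.37 to 0.21 for AHRR, -0.50 to 0.57 for AKR1C2 and -0.28 to 0.41 for AKR1C3. The cause of these changes was not tested. Deviations of same-numbered libraries from their group means correlated at 0.07, 0.12 and 0.18, and those of differently numbered libraries at -0.19 to 0.10. The labels do not say whether the numbers pair the samples, and the main test did not pair them. With a replicate block 102 genes passed in edgeR, 0 of the 10 among them. AKR1C1 was then at -0.43 ± 0.13 (adjusted p = 0.256), beside -0.33 ± 0.49 without the block. HMOX1 and CYP1A1 rested on 16 to 46 counts per library.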
